A study of Mus musculus with 24 samples.

Results

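The genes of iron uptake, storage and export described here are 10 of the 24415 genes of a count table made from mouse lens, chosen by symbol: Trf, Tfrc, Steap3, Slc11a2, Fth1, Ftl1, Slc40a1, Cp, Aco1 and Ireb2. All 10 had a row, and each is followed across 24 RNA sequencing libraries. The libraries fall into 6 groups of 4. LEGSKO+BSO lenses came from LEGSKO mice that had received buthionine sulfoximine, an inhibitor of glutathione synthesis, and the submitters class them as severely deficient in glutathione. LEGSKO lenses came from untreated LEGSKO mice, classed as mildly deficient, and WT lenses from untreated wild-type mice. Every group was of the C57BL/6 background, and for each condition both cortical fiber cells (Fibers) and the epithelial layer (Epithelia) were sequenced. In LEGSKO mice, as known for this line, the gene Gclc is deleted in the lens; it encodes the catalytic chain of glutamate-cysteine ligase, which starts glutathione synthesis. LEGSKO+BSO lenses therefore carry both the knockout and the inhibitor, and no library of BSO-treated WT lens is analysed here. The Cre driver, the deleted exons, the dose of BSO, and the age and sex of the mice are not stated by the labels. Nor do they tell whether each library is from its own mouse, so the p-values below measure the spread between libraries, which may be technical.

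Iron reaches cells bound to transferrin, which docks on the transferrin receptor and is taken up into endosomes. There a Steap reductase converts the iron to its ferrous form, and Slc11a2 carries it into the cytosol. Iron that is not used is stored in ferritin, a shell of heavy (Fth1) and light (Ftl1) chains, or leaves through ferroportin (Slc40a1), helped by ferroxidases such as ceruloplasmin (Cp). The iron regulatory proteins IRP1 (gene Aco1) and IRP2 (gene Ireb2) bind iron-responsive elements in messenger RNAs when iron is scarce. Binding near the start of ferritin and ferroportin messages blocks their translation, and binding in the 3' UTR of the transferrin receptor message protects it from decay. Much of this control acts on translation and protein, which RNA sequencing does not measure.

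The elements themselves are shown because a strict sequence pattern for them divides the 10 genes into those with a match and those without. A search of GENCODE M21 transcripts (GRCm38) asked for a hairpin with the loop CAGTGN, where N is any base but G, 5 paired bases below it, an unpaired C, and at least 4 of 5 further pairs. It found the pattern in 4 of the 10 genes and in 24 of all 21877 protein-coding genes (0.11%). In the 30-base sites below, written 5' to 3', capitals mark the unpaired C and the 6-base loop. Fth1 (chr19:9982732-9982761, plus strand), Ftl1 (chr7:45459778-45459807, minus strand) and Slc40a1 (chr1:45925464-45925493, minus strand) carry theirs in the 5' UTR, and the ferritin sites have the same 5 bases between the unpaired C and the loop.
Fth1: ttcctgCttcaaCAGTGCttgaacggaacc
Ftl1: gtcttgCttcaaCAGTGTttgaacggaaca
Slc40a1: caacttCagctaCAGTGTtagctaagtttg
Tfrc holds 4 sites in its 3' UTR on the plus strand, at chr16:32631219-32631248, chr16:32631598-32631627, chr16:32631663-32631692 and chr16:32631710-32631739, in that order here.
Tfrc site 1: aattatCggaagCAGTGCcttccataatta
Tfrc site 2: cattatCgggagCAGTGTcttccataatgc
Tfrc site 3: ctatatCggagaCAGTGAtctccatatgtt
Tfrc site 4: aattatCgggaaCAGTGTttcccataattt
A match is a description of the sequence, and the absence of one in the other 6 genes says only that this pattern was not in the transcripts searched. It does not show that those genes, Slc11a2 among them, lack an element of another form.

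Total counts per library were 19.3 to 46.6 M, and the 4 LEGSKO+BSO Fibers libraries were the deepest (39.0 to 46.6 M). Gclc, the targeted gene, was not called between conditions in either tissue: it averaged 85.7 ± 18.6 CPM (read counts scaled to a common library size) in LEGSKO+BSO Epithelia, 58.2 ± 10.6 in LEGSKO Epithelia and 78.6 ± 12.9 in WT Epithelia, and 74.8 ± 5.1 CPM in LEGSKO+BSO Fibers, 75.6 ± 6.2 in LEGSKO Fibers and 88.3 ± 31.4 in WT Fibers (SD, n = 4 each). A count summed over the whole gene does not test for loss of particular exons, so the condition names used here are those of the labels. Of 8 lens epithelium markers 7 were lower in WT Fibers than in WT Epithelia, and of 12 lens fiber markers 11 were higher. WT Fibers library 1 stood apart: crystallin genes took 50.1% of its counts, and no more than 34.3% in any other fiber library. Gclc had 135 CPM in that library, and 71.9, 75.5 and 70.4 CPM in WT Fibers libraries 2, 3 and 4. Values that rest on library 1 are given with and without it.

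Ferritin light chain was the most abundant of the 10 messages in fibers. Both ferritin chains were higher in fibers than in epithelia. The size of each difference between tissues depended on the scaling. Fth1 in WT was 3.96-fold higher when scaled over all 24 libraries and 1.73-fold higher with library totals alone. The uptake, export and regulatory genes were lower in fibers, although Trf was not called lower in LEGSKO+BSO or LEGSKO. In WT lenses 2 of the 10 genes were higher in fibers and 8 lower (edgeR quasi-likelihood test on 24 libraries, Benjamini-Hochberg adjusted p below 0.05). Between these tissues 76.4% of the 15560 genes tested were called, 37.0% higher and 39.4% lower in fibers, so a call by itself sets no gene apart here. The median log2 difference was -1.17 over the 10 genes and -0.09 over all genes. In bulk tissue, fewer cells of a type and less RNA per cell cannot be told apart.

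Ftl1, the ferritin light chain, had 5205, 6847, 6636 and 6597 CPM in WT Fibers, against 229, 295, 252 and 222 CPM in WT Epithelia, on a scale set over all 24 libraries. No fiber library came near an epithelial one, and the difference was 25.4-fold (log2 4.66 ± 0.15 SE, edgeR adjusted p = 3.23e-18). Fth1, the heavy chain that oxidises iron for storage, had 1485, 1087, 1153 and 1145 CPM in WT Fibers, against 336, 318, 295 and 282 CPM in WT Epithelia. The groups did not overlap, and the difference was 3.96-fold (log2 1.98 ± 0.14, adjusted p = 3.47e-12). Without WT Fibers library 1 the WT differences were 26.4-fold for Ftl1 and 3.61-fold for Fth1. In LEGSKO+BSO and LEGSKO lenses Ftl1 was 23.6-fold and 19.7-fold higher in fibers, and Fth1 4.29-fold and 3.50-fold. Some counts of these genes may belong elsewhere. Ferritin has processed pseudogenes of near-identical sequence, and none of those looked up by symbol has a row of its own here. Ftl1 also overlaps 2 annotated genes without a row, 1 of them on the other strand.

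Among the uptake genes, Steap3, the endosomal ferrireductase, was close to absent from fibers. It had 0, 5, 10 and 1 reads in the 4 WT Fibers libraries, against 325, 441, 711 and 743 reads in WT Epithelia. The fitted difference was 74.5-fold (log2 -6.22 ± 0.56, adjusted p = 2.46e-10), and its size rests on the 16 fiber reads. Tfrc, the transferrin receptor, averaged 65.7 ± 9.8 CPM in WT Fibers and 218 ± 12.2 CPM in WT Epithelia, 3.32-fold lower in fibers (adjusted p = 1.23e-14). Trf, transferrin itself, averaged 4.22 ± 1.48 CPM in WT Fibers and 13.1 ± 1.9 CPM in WT Epithelia, 3.09-fold lower (adjusted p = 8.82e-06). Slc11a2, the endosomal iron transporter also called DMT1, differed little on this scale, at 23.8 ± 2.0 CPM in WT Fibers and 30.5 ± 2.1 CPM in WT Epithelia (1.28-fold lower, adjusted p = 0.000752). With library totals alone Slc11a2 was 2.85-fold lower. Its exons overlap the antisense gene Gm5475, and whether reads were counted by strand is not given in the sources used here.

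The exporter Slc40a1 showed the effect of 1 library. It had 7.44, 0.69, 0.67 and 0.85 CPM in WT Fibers, where the first value (91 reads) is from library 1, against 10.6, 8.23, 6.83 and 6.31 CPM in WT Epithelia. That library lay inside the epithelial range while the other 3 were all below 1 CPM. Slc40a1 was 3.74-fold lower in WT Fibers with it (log2 -1.90 ± 0.49, adjusted p = 0.00114) and 10.9-fold lower without it (log2 -3.45, adjusted p = 1.93e-09). In LEGSKO+BSO lenses the difference was 21.4-fold and in LEGSKO lenses 14.8-fold. Cp, the ferroxidase that partners with ferroportin, averaged 261 ± 23.1 CPM in WT Fibers and 730 ± 45.7 CPM in WT Epithelia, 2.80-fold lower (adjusted p = 4.52e-14); its exons overlap the antisense gene Hps3. The regulators differed less: Aco1 was 1.81-fold lower in WT Fibers (17.4 ± 1.4 against 31.4 ± 1.4 CPM) and Ireb2 1.29-fold lower (58.1 ± 3.2 against 74.7 ± 2.5 CPM), with adjusted p of 1.20e-10 and 4.21e-05. With library totals alone Aco1 was 4.06-fold and Ireb2 2.90-fold lower.

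Of the 10 genes 9 had non-overlapping fiber and epithelial libraries in each of the 3 conditions, where 67.5% (WT), 71.1% (LEGSKO) and 76.1% (LEGSKO+BSO) of all genes tested did so. The exception was Slc40a1 in WT and Trf in LEGSKO+BSO and LEGSKO. In both of these conditions 2 genes were higher in fibers and 7 lower. Over all genes 78.9% were called in LEGSKO+BSO (38.1% higher, 40.8% lower) and 75.8% in LEGSKO (36.8% higher, 39.0% lower). Trf averaged 14.9 ± 2.6 CPM in LEGSKO+BSO Fibers and 18.8 ± 7.7 CPM in LEGSKO+BSO Epithelia, a log2 difference of -0.33 with a 95% interval of -0.78 to 0.13 (adjusted p = 0.206). The interval in LEGSKO was -0.79 to 0.16 (13.8 ± 2.4 CPM in Fibers, 17.3 ± 5.5 CPM in Epithelia, adjusted p = 0.243). The scaling matters for these values. With library totals alone the median log2 difference of all genes moved to -1.25 (WT), -1.18 (LEGSKO) and -1.15 (LEGSKO+BSO). Ftl1 and Fth1 were still higher in fibers, 11.5-fold and 1.73-fold in WT. The same 8 genes were lower in WT, each by a larger fold, such as 7.54-fold for Tfrc. Trf was then called lower in LEGSKO+BSO (log2 -1.39) and LEGSKO (log2 -1.43) too.

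Per kilobase of transcript, which allows levels of different genes to be compared, ferritin ranked among the highest of the genes with a length. Ftl1 had 6531 ± 777 CPM per kb in WT Fibers, rank 20 of 20175 genes, and 258 ± 33.8 in WT Epithelia, rank 109. Fth1 had 1310 ± 195 CPM per kb in WT Fibers (rank 97) and 331 ± 25.8 in WT Epithelia (rank 80), so the order of the chains differed between the tissues. Cp followed with 64.7 ± 5.7 CPM per kb in WT Fibers and 181 ± 11.3 in WT Epithelia. In WT Epithelia the order then ran through Tfrc (44.6 ± 2.5), Ireb2 (12.9 ± 0.4), Slc11a2 (10.1 ± 0.7), Aco1 (8.21 ± 0.38), Trf (5.10 ± 0.74), Steap3 (3.27 ± 1.01) and Slc40a1 (2.37 ± 0.57 CPM per kb). The last 2 had overlapping ranges, 2.05 to 4.21 for Steap3 and 1.87 to 3.15 CPM per kb for Slc40a1. In WT Fibers Tfrc (13.4 ± 2.0) and Ireb2 (10.1 ± 0.6) stayed ahead of Slc11a2 (7.87 ± 0.67), Aco1 (4.55 ± 0.36), Trf (1.64 ± 0.58), Slc40a1 (0.72 ± 1.00) and Steap3 (0.04 ± 0.05 CPM per kb). Without WT Fibers library 1 Slc40a1 was at 0.22 ± 0.03 CPM per kb (n = 3), still between Trf (1.59 ± 0.69) and Steap3 (0.05 ± 0.05).

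**Figure D1:**
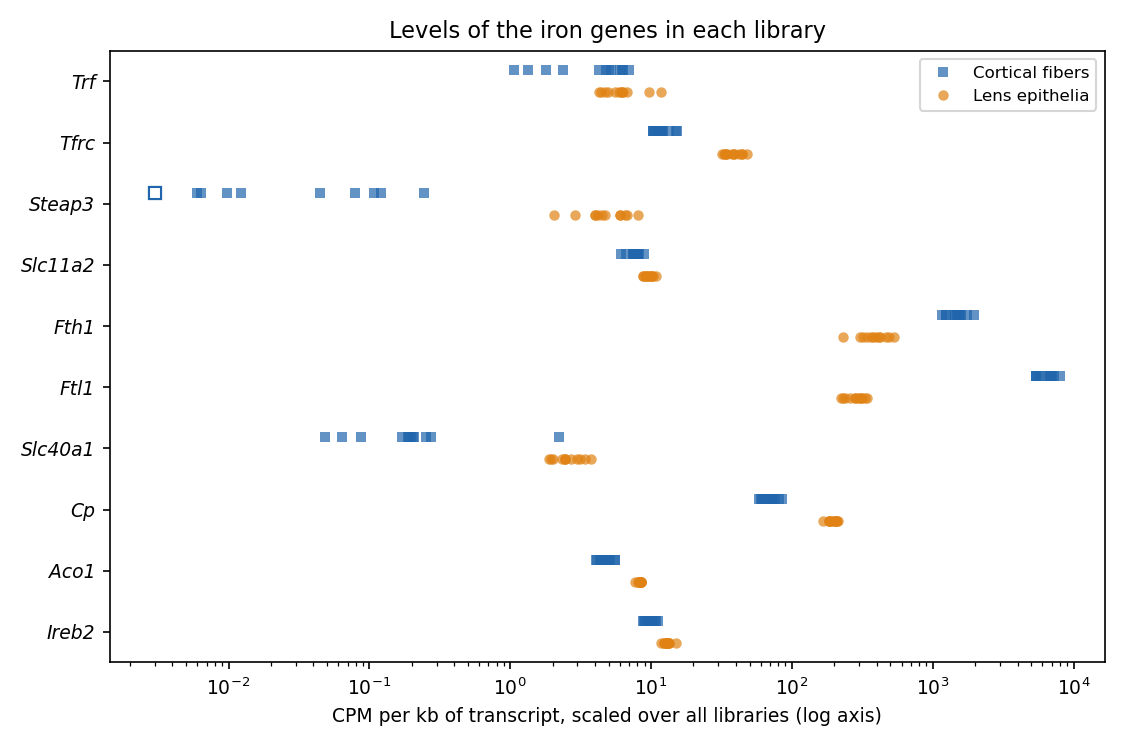
Level of each iron gene in every library, in CPM per kilobase of transcript on a log axis scaled over all 24 libraries; squares are cortical fibers and circles lens epithelia, all conditions together. Ftl1 and Fth1 lie far to the right in fibers, Steap3 and Slc40a1 far to the left, and the single Slc40a1 square among the epithelial values is WT Fibers library 1; the open square marks the 3 fiber libraries with 0 Steap3 reads, which a log axis cannot place.

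The balance of the ferritin chains, Ftl1 over Fth1 per kb, is given as a description. It was 4.68, 3.83, 5.06 and 4.69 in LEGSKO+BSO Fibers, 3.82, 3.54, 3.10 and 3.88 in LEGSKO Fibers, and 3.36, 6.05, 5.53 and 5.53 in WT Fibers. Light chain exceeded heavy chain in every fiber library, and WT Fibers library 1 had the lowest ratio of its group. In epithelia the ratio was below 1 in all 12 libraries, at 0.845 ± 0.107 in LEGSKO+BSO, 0.632 ± 0.027 in LEGSKO and 0.780 ± 0.10 in WT (SD, n = 4 each). LEGSKO Epithelia spanned 0.605 to 0.669, below all 4 LEGSKO+BSO libraries (0.717 to 0.962) and overlapping WT Epithelia at 0.654.

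**Figure D2:**
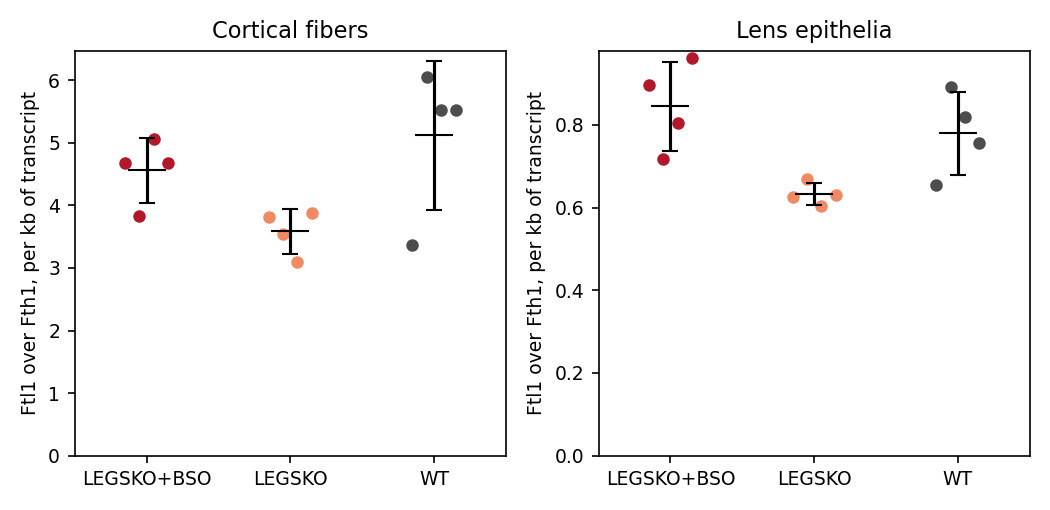
Ratio of ferritin light to heavy chain message (Ftl1 over Fth1, each per kilobase of transcript) in each library of cortical fibers (left) and lens epithelia (right); bars are the mean and SD of 4 libraries. Every fiber library is above 3 and every epithelial library below 1.

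Between conditions, the iron gene that passed the test with the largest change was transferrin, in fibers. Trf rose 3.52-fold in LEGSKO+BSO Fibers and 3.27-fold in LEGSKO Fibers over WT Fibers, and the other members tested in fibers did not pass the test. In epithelia Steap3 rose 2.09-fold and Tfrc fell, to a level 1.30-fold lower, in LEGSKO+BSO against WT. No member passed in LEGSKO against WT Epithelia, or in LEGSKO+BSO against LEGSKO in either tissue.

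Of the 9 members tested in fibers 1 was called in LEGSKO+BSO against WT, where 5.52% of all 13436 genes were called (3.05% higher), and 1 in LEGSKO against WT, where 1.64% were called (1.09% higher). In both it was Trf, which was higher. The counts behind these shares, 742 and 220 genes, ran from 285 (without LEGSKO+BSO library 3) to 1075 (without WT library 1) for LEGSKO+BSO and from 61 (without LEGSKO library 3) to 591 (without WT library 1) for LEGSKO. Steap3 had too few reads in fibers to be tested there: 12, 1, 1 and 37 in LEGSKO+BSO, 11, 0, 0 and 1 in LEGSKO, and 0, 5, 10 and 1 in WT. Between LEGSKO+BSO and LEGSKO Fibers none of the 9 was called, none had an unadjusted p below 0.05 (DESeq2 also called none), and 0.0298% of all genes were called. Their median log2 change was 0.08 in LEGSKO+BSO and 0.02 in LEGSKO against WT, beside -0.01 over all genes in each.

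Trf had 9.01, 8.26, 11.1 and 12.1 CPM in LEGSKO+BSO Fibers, 10.5, 8.68, 10.9 and 7.43 CPM in LEGSKO Fibers, and 3.11, 4.16, 1.84 and 2.34 CPM in WT Fibers, scaled within fibers. All 8 LEGSKO libraries, treated or not, were above all 4 WT libraries. The log2 fold change was 1.82 ± 0.21 for LEGSKO+BSO against WT (edgeR adjusted p = 0.00028) and 1.71 ± 0.22 for LEGSKO against WT (adjusted p = 0.000851). Both comparisons use the same WT libraries. Trf stayed called in both under every alternative that was run, and without any 1 library its log2 change ranged from 1.65 to 2.09 in LEGSKO+BSO and from 1.54 to 1.98 in LEGSKO. LEGSKO+BSO and LEGSKO Fibers differed by a log2 value of 0.11, with a 95% interval of -0.27 to 0.48 (adjusted p = 0.883).

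Trf counts in fibers were low: 392 to 523 reads per library in LEGSKO+BSO, 172 to 275 in LEGSKO and 49 to 132 in WT. An annotated gene on the same strand, Gm20425, overlaps Trf exons and has no row, so its reads cannot be separated from those of Trf. Markers of other cells were counted beside this result. The summed level of 8 lens epithelium markers was 1776 to 1804 CPM in LEGSKO+BSO Fibers, 1594 to 1795 in LEGSKO Fibers and 1745 to 1959 in WT Fibers, with none of the 8 called. Between the tissues in WT, 7 of these 8 were lower in fibers and 1 higher (median log2 -4.4). The sum therefore need not follow the 7. The summed level of 10 pigmented iris and ciliary body markers was 28.7 to 35.8 CPM in LEGSKO+BSO Fibers, 32.0 to 37.5 in LEGSKO Fibers and 29.8 to 38.1 in WT Fibers, with none of the 5 tested called and Mlana at 0 in LEGSKO Fibers. The 12 immune cell markers summed to 27.5 to 37.2 CPM in LEGSKO+BSO Fibers, 29.3 to 31.6 in LEGSKO Fibers and 21.5 to 35.1 in WT Fibers, with 1 of 3 tested higher in LEGSKO+BSO Fibers than in WT Fibers. Between the tissues in WT, 1 of 8 immune markers tested was higher in fibers and 3 were lower, so this sum too can rest on few markers. C1qa, C1qb, C1qc and Aif1 were at 0 in WT Fibers, and C1qc also in LEGSKO Fibers. The 11 retinal markers summed to 3.59 to 4.31 CPM in LEGSKO+BSO Fibers, 4.80 to 38.1 in LEGSKO Fibers and 3.26 to 4.69 in WT Fibers, with Nrl at 0 in WT. The 38.1 is LEGSKO Fibers library 1, and 1 of 4 tested, Pde6b, was higher in LEGSKO than in WT (list median log2 1.22, against -0.21 for LEGSKO+BSO against WT). Without that library the log2 change of Trf in LEGSKO was 1.65 (adjusted p = 0.00435). The 8 corneal and conjunctival markers summed to 2.55 to 6.32 CPM in LEGSKO+BSO Fibers, 5.16 to 9.20 in LEGSKO Fibers and 2.79 to 5.20 in WT Fibers, with none of the 2 tested called. At 0 were Krt5 in LEGSKO+BSO, Krt5, Krt12 and Krt14 in LEGSKO, and these 3 with Krt8 and Krt13 in WT. The red blood cell and blood vessel lists summed to at most 1.94 CPM in any fiber library. The part of these cells in the Trf values was not tested.

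In epithelia Trf varied more between libraries. It had 18.8, 23.6, 45.1 and 23.99 CPM in LEGSKO+BSO Epithelia, 25.4, 23.1, 36.6 and 16.4 CPM in LEGSKO Epithelia, and 22.5, 16.3, 17.6 and 21.2 CPM in WT Epithelia. The groups overlapped, and neither LEGSKO+BSO (log2 0.52 ± 0.25, adjusted p = 0.362) nor LEGSKO (0.38 ± 0.25, adjusted p = 0.527) differed from WT beyond the spread. Whether the response of Trf differed between the tissues was tested directly over the 24 libraries. The fiber response exceeded the epithelial one by a log2 value of 1.30 ± 0.36 in LEGSKO+BSO (adjusted p = 0.103) and 1.31 ± 0.37 in LEGSKO (adjusted p = 0.202), which did not pass. DESeq2 called the first of these (adjusted p = 0.028), as did edgeR without LEGSKO+BSO Epithelia library 3 (log2 1.62, adjusted p = 0.0427). No other member passed a test of the difference between tissues by edgeR (at an unadjusted p below 0.05 there was 1 in each comparison, Slc40a1 in both against WT and Cp in LEGSKO+BSO against LEGSKO), where 0.276% (LEGSKO+BSO against WT), 0.103% (LEGSKO against WT) and 0.0321% (LEGSKO+BSO against LEGSKO) of all genes were called.

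**Figure D3:**
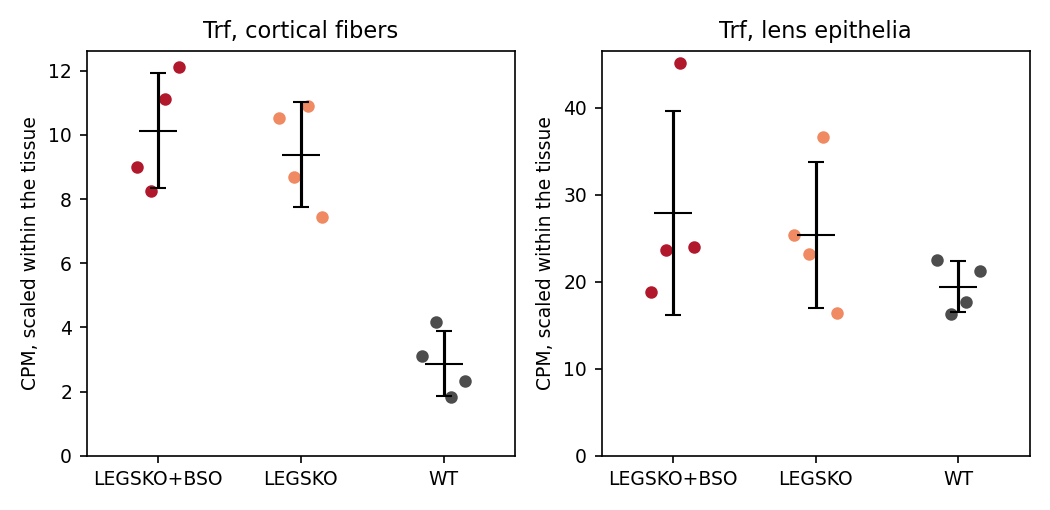
Trf in each library of cortical fibers (left) and lens epithelia (right), in CPM scaled within the tissue; bars are the mean and SD of 4 libraries. In fibers the LEGSKO+BSO and LEGSKO libraries lie between 7.43 and 12.1 CPM and the WT libraries between 1.84 and 4.16; in epithelia the groups overlap.

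The genes whose pattern over the 12 fiber libraries was nearest to that of Trf were Pm20d1, Frem1 and Cd200, by the root mean square difference of centred log2 CPM (0.358, 0.371 and 0.412, among 11155 genes). Trf itself had a root mean square of 0.907 about its own mean. Pm20d1 averaged 4.11 CPM in LEGSKO+BSO Fibers, 4.33 in LEGSKO Fibers and 1.71 in WT Fibers. Frem1 averaged 3.90 CPM in LEGSKO+BSO, 4.06 in LEGSKO and 1.37 in WT Fibers, and Cd200 3.64 in LEGSKO+BSO, 3.68 in LEGSKO and 1.49 in WT Fibers.

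In epithelia 2 of the 10 members were called in LEGSKO+BSO against WT, 1 higher and 1 lower, where 1.17% of all 15089 genes were called (0.795% higher, 0.378% lower). None was called in LEGSKO against WT (0.842% of all genes) or in LEGSKO+BSO against LEGSKO (0.722%). At an unadjusted p below 0.05 they held 4 and 2 of the 10, and DESeq2 called 2 in each. The share of all genes under those criteria is not given here, so these counts set no member apart. The counts behind these shares moved with single libraries. For LEGSKO+BSO against WT the count was 177 and ran from 41 (without LEGSKO+BSO library 1) to 324 (without LEGSKO+BSO library 2). For LEGSKO against WT it was 127 and ran from 40 (without WT library 2) to 183 (without WT library 1). For LEGSKO+BSO against LEGSKO it was 109 and ran from 0 (without LEGSKO+BSO library 1 or 3, or LEGSKO library 2 or 4) to 442 (without LEGSKO+BSO library 2). The median log2 change of the 10 was 0.14 in LEGSKO+BSO and 0.07 in LEGSKO against WT, beside -0.01 over all genes in each.

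Steap3 had 45.7, 49.7, 51.6 and 61.6 CPM in LEGSKO+BSO Epithelia, 29.9, 35.4, 34.1 and 45.0 CPM in LEGSKO Epithelia, and 15.7, 21.8, 30.0 and 32.3 CPM in WT Epithelia. LEGSKO+BSO libraries were all above both other groups, while LEGSKO and WT overlapped. Steap3 rose in LEGSKO+BSO against WT (log2 1.06 ± 0.18, adjusted p = 0.0118), and the call was lost only without WT Epithelia library 2 (log2 change 0.90 to 1.21 and adjusted p 0.00883 to 0.0544 without any 1 library). LEGSKO lay between, 1.44-fold above WT (log2 0.53 ± 0.18, adjusted p = 0.192) and as far below LEGSKO+BSO (log2 0.53 ± 0.18 for LEGSKO+BSO against LEGSKO, adjusted p = 0.141; DESeq2 adjusted p = 0.0497).

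Other cell types were counted beside the Steap3 result. The 8 markers of corneal and conjunctival epithelium, all keratins, summed to 176 to 203 CPM in LEGSKO+BSO Epithelia, 211 to 224 in LEGSKO Epithelia and 102 to 149 in WT Epithelia. Of the 3 tested, 2 were called higher in each of the LEGSKO groups than in WT, and none of the 8 was at 0 in a whole group. LEGSKO+BSO had the highest Steap3 and LEGSKO the highest keratin sum. The cornea-abundant gene Aldh3a1, given below, was picked for its likeness to Steap3, so its matching order of groups is no separate result. The pigmented tissue markers summed to 331 to 395 CPM in LEGSKO+BSO Epithelia, 300 to 360 in LEGSKO Epithelia and 265 to 322 in WT Epithelia, with 1 of 9 tested called higher than WT in each. Against LEGSKO, 2 of the 9 were called higher in LEGSKO+BSO, Dct and Gpnmb (list median log2 0.46), and Mlana was at 0 in LEGSKO. The 11 retinal markers summed to 19.8 to 138 CPM in LEGSKO+BSO Epithelia, 26.8 to 347 in LEGSKO Epithelia and 78.0 to 456 in WT Epithelia, with no call (median log2 -1.67 for LEGSKO+BSO against WT). The 12 immune cell markers summed to 5.25 to 25.3 CPM in LEGSKO+BSO Epithelia, 3.33 to 7.05 in LEGSKO Epithelia and 4.79 to 14.4 in WT Epithelia, with no call among 8 tested (median log2 0.64 for LEGSKO+BSO against WT and 1.72 against LEGSKO). No retinal or immune marker was at 0 in a whole group. The red blood cell list reached 21.3 CPM and the blood vessel list 5.43 CPM in the highest epithelial library, with no call in either. The part of all these cells in the Steap3 values was not tested. Over the 12 epithelial libraries the genes nearest in pattern to Steap3 were Prima1, Cys1 and Aldh3a1 (root mean square difference 0.132, 0.134 and 0.161 among 12728 genes, against 0.534 for Steap3 about its own mean). Aldh3a1, an aldehyde dehydrogenase that is abundant in mouse cornea, averaged 3180 CPM in LEGSKO+BSO Epithelia, 2450 in LEGSKO Epithelia and 1530 in WT Epithelia.

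Tfrc had 238, 231, 253 and 271 CPM in LEGSKO+BSO Epithelia, 275, 238, 280 and 242 CPM in LEGSKO Epithelia, and 306, 346, 317 and 322 CPM in WT Epithelia. Every WT library was above every LEGSKO+BSO and LEGSKO library. The fall was called for LEGSKO+BSO (log2 -0.38 ± 0.07, adjusted p = 0.0258) and not for LEGSKO (log2 -0.32 ± 0.07, 1.25-fold lower, adjusted p = 0.0616), although DESeq2 called LEGSKO too (adjusted p = 0.00255). The LEGSKO+BSO call is not firm: it was lost without LEGSKO+BSO Epithelia library 1 (adjusted p = 0.107) or 3 (0.0806) and without WT Epithelia library 2 (0.0864) or 3 (0.0509), with log2 values of -0.42 to -0.34 without any 1 library. It was also lost with a replicate block (log2 -0.38, adjusted p = 0.0566), with library totals (-0.33, 0.0668) and on the 8 libraries alone (-0.37, 0.0809). In fibers Tfrc had 34.6, 37.4, 35.1 and 36.0 CPM in LEGSKO+BSO, 45.0, 34.0, 39.5 and 40.6 in LEGSKO, and 50.5, 50.3, 38.0 and 39.5 in WT. LEGSKO+BSO and WT did not overlap, at a log2 change of -0.32 ± 0.10 that edgeR did not call (adjusted p = 0.0837) and DESeq2 did (0.0462). Without WT Fibers library 3 edgeR called it as well (log2 -0.39, adjusted p = 0.0475).

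The ferritin heavy chain had its highest epithelial values in LEGSKO. Fth1 had 521, 566, 546 and 316 CPM in LEGSKO+BSO Epithelia, 666, 573, 637 and 708 CPM in LEGSKO Epithelia, and 501, 468, 432 and 419 CPM in WT Epithelia. LEGSKO overlapped neither of the other groups. The difference from WT was 1.42-fold (log2 0.51 ± 0.14, adjusted p = 0.111) and was called by DESeq2 (0.0112) and by edgeR on the 8 libraries alone (0.0226). LEGSKO+BSO was 1.33-fold below LEGSKO (log2 -0.41 ± 0.14, adjusted p = 0.149; DESeq2 0.0491) and 1.07-fold above WT (adjusted p = 0.796). LEGSKO+BSO Epithelia library 4, the lowest for Fth1, was also the lowest of its group for Ftl1, at 317 CPM against 423 to 487 in the other 3. The 12 lens fiber markers summed to 27250 (library 4) to 46910 CPM in LEGSKO+BSO Epithelia. Their sum was 30290 to 50510 CPM in LEGSKO Epithelia and 37840 to 51760 in WT Epithelia. None of the 12 was called against WT, and 1 was called higher in LEGSKO+BSO than in LEGSKO. The part of fiber cells in the ferritin values was not tested.

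**Figure D4:**
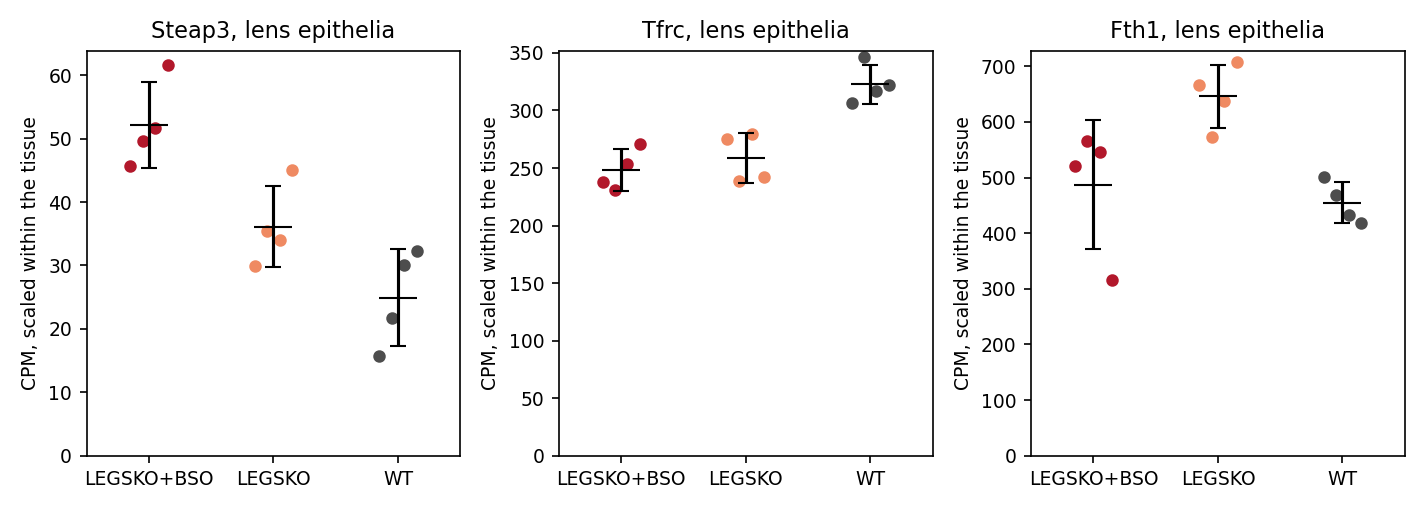
Steap3, Tfrc and Fth1 in each library of lens epithelia, in CPM scaled within the tissue; bars are the mean and SD of 4 libraries. Steap3 is highest in LEGSKO+BSO (45.7 to 61.6 CPM), Tfrc is lower in LEGSKO+BSO and LEGSKO than in all WT libraries, and Fth1 is highest in LEGSKO (573 to 708 CPM).

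In fibers Fth1 depended on WT Fibers library 1. It had 978, 940, 991 and 913 CPM in LEGSKO+BSO, 902, 1229, 1107 and 945 in LEGSKO, and 1009, 739, 779 and 776 in WT, where library 1 is the first value. With all libraries neither LEGSKO+BSO (log2 0.21 ± 0.11, adjusted p = 0.294) nor LEGSKO (0.34 ± 0.11, adjusted p = 0.155) was called. Without that library both were (LEGSKO+BSO log2 0.32, adjusted p = 0.0362; LEGSKO log2 0.44, adjusted p = 0.00819). Ftl1, in contrast, averaged 4549 ± 619 CPM in LEGSKO+BSO Fibers, 3881 ± 451 in LEGSKO Fibers and 4288 ± 507 in WT Fibers. With all libraries its changes against WT were at most 1.11-fold (adjusted p = 0.732 for LEGSKO+BSO and 0.622 for LEGSKO). Without WT Fibers library 1 Ftl1 was 1.175-fold lower in LEGSKO (log2 -0.23, edgeR adjusted p = 0.222). In LEGSKO+BSO the log2 change was then 0.002 (adjusted p = 0.991). In epithelia Ftl1 averaged 421 ± 74.4 CPM in LEGSKO+BSO, 425 ± 31.3 in LEGSKO and 369 ± 46.7 in WT, with 95% log2 intervals against WT of -0.04 to 0.42 for LEGSKO+BSO and -0.03 to 0.44 for LEGSKO.

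The exporter pair gave no call. Slc40a1 had 0.44, 0.14, 0.11 and 0.63 CPM in LEGSKO+BSO Fibers, 0.46, 0.39, 0.20 and 0.43 in LEGSKO Fibers, and 5.06, 0.47, 0.45 and 0.58 in WT Fibers. Only the first WT library was above 1 CPM. Its log2 change was -2.23 ± 0.76 in LEGSKO+BSO (adjusted p = 0.104) and -2.05 ± 0.80 in LEGSKO (0.232), and without that library it was -0.61 in LEGSKO+BSO (0.536) and -0.44 in LEGSKO (0.715). In epithelia Slc40a1 averaged 15.4 ± 3.1 CPM in LEGSKO+BSO, 11.9 ± 2.0 in LEGSKO and 11.8 ± 2.9 in WT, overlapping throughout. Cp averaged 1238 ± 31.2 CPM in LEGSKO+BSO Epithelia, 1136 ± 67.6 in LEGSKO Epithelia and 1080 ± 61.5 in WT Epithelia. LEGSKO+BSO and WT did not overlap for Cp, but the 1.15-fold difference did not pass in edgeR (log2 0.20 ± 0.07, adjusted p = 0.172) and did in DESeq2 (0.0259). In fibers Cp averaged 186 ± 17.6 CPM in LEGSKO+BSO, 210 ± 21.8 in LEGSKO and 177 ± 16.03 in WT.

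The regulators and Slc11a2 gave no call in any comparison of conditions. In epithelia Aco1 averaged 47.1 ± 1.2 CPM in LEGSKO+BSO, 46.8 ± 0.7 in LEGSKO and 46.5 ± 2.1 in WT, so that a log2 change beyond -0.10 to 0.12 lies outside the 95% interval of either LEGSKO group against WT. Ireb2 averaged 107 ± 4.7 CPM in LEGSKO+BSO, 115 ± 7.2 in LEGSKO and 110.4 ± 3.7 in WT Epithelia, with intervals against WT of -0.17 to 0.07 for LEGSKO+BSO and -0.06 to 0.18 for LEGSKO. Slc11a2 averaged 43.4 ± 1.7 CPM in LEGSKO+BSO, 40.5 ± 2.9 in LEGSKO and 45.1 ± 3.1 in WT Epithelia. In fibers the log2 changes of these 3 genes against WT ran from -0.09 to 0.20, the largest for Aco1 in LEGSKO+BSO (0.20 ± 0.09, adjusted p = 0.231).

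Across the epithelial comparisons 2 members did not overlap between LEGSKO and WT (Tfrc and Fth1), 3 between LEGSKO+BSO and WT (Tfrc, Steap3 and Cp) and 2 between LEGSKO+BSO and LEGSKO (Steap3 and Fth1), of 10 each. Over all genes the shares were 8.45% for LEGSKO against WT, 7.63% for LEGSKO+BSO against WT and 12.3% for LEGSKO+BSO against LEGSKO. In fibers 2 of 9 did not overlap between LEGSKO+BSO and WT (Trf and Tfrc), 1 between LEGSKO and WT (Trf) and 0 between LEGSKO+BSO and LEGSKO, beside 14.5% of all genes for LEGSKO+BSO against WT, 8.68% for LEGSKO against WT and 8.99% for LEGSKO+BSO against LEGSKO.

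**Figure D5:**
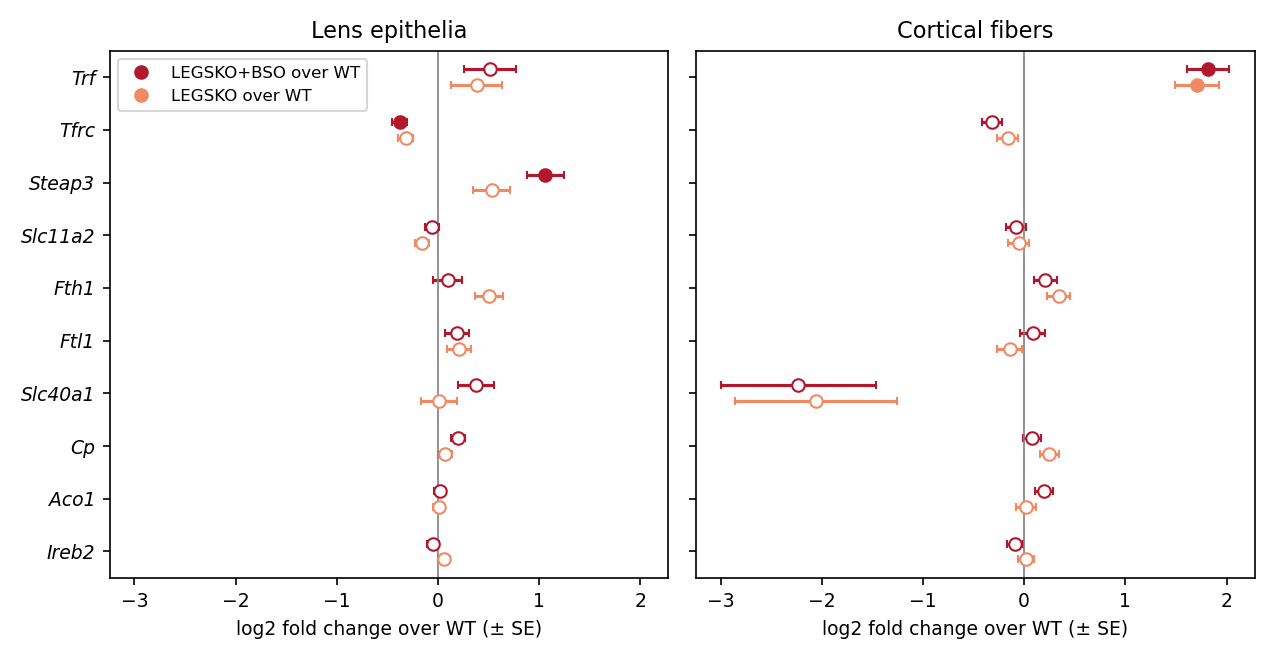
Log2 fold change over WT, with its SE, of each iron gene in lens epithelia (left) and cortical fibers (right), for LEGSKO+BSO and LEGSKO against the same WT libraries; filled symbols passed the edgeR test at an adjusted p below 0.05. Trf in fibers and Steap3 and Tfrc in LEGSKO+BSO epithelia are filled. The Slc40a1 bars in fibers are wide, where reads were few and WT library 1 was high. Steap3 was not tested in fibers.

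The wider iron and haem pathway was followed in 76 further genes in 6 lists. In epithelia 65 were tested: 1 rose and 1 fell in LEGSKO+BSO against WT (3.08%, beside 1.17% of all genes), 1 rose in LEGSKO against WT (1.54%, beside 0.842%), and none was called in LEGSKO+BSO against LEGSKO (18 at an unadjusted p below 0.05, 6 by DESeq2). In fibers 63 were tested: 3 rose and 1 fell in LEGSKO+BSO against WT (6.35%, beside 5.52% of all genes), and none was called in LEGSKO against WT (10 unadjusted, 3 by DESeq2) or in LEGSKO+BSO against LEGSKO (6 unadjusted, none by DESeq2). Their median log2 change against WT was 0.01 in LEGSKO+BSO Epithelia, 0.07 in LEGSKO Epithelia and within 0.01 of 0 in both fiber groups. None of the 66 tested over 24 libraries passed edgeR's test of the difference between tissues (12, 7 and 10 unadjusted for LEGSKO+BSO against WT, LEGSKO against WT and LEGSKO+BSO against LEGSKO), and DESeq2 called 1, Nubp1, in LEGSKO+BSO against WT. The shares of all genes at an unadjusted p below 0.05 or called by DESeq2 are not given here. The unadjusted and DESeq2 counts therefore do not set the list apart.

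Alad, the enzyme of the second step of haem synthesis, had the smallest adjusted p of them in epithelia. It averaged 1004 ± 108 CPM in LEGSKO+BSO Epithelia, 968 ± 45.4 in LEGSKO Epithelia and 691 ± 32.6 in WT Epithelia. Neither LEGSKO group overlapped WT, and Alad rose 1.45-fold in LEGSKO+BSO (log2 0.54 ± 0.08, adjusted p = 0.00524) and 1.40-fold in LEGSKO (log2 0.49 ± 0.08, adjusted p = 0.00944). The LEGSKO call was lost without WT Epithelia library 2 (0.0506). Alas1, the first and rate-limiting enzyme of the same route, fell in LEGSKO+BSO to 20.2 ± 1.2 CPM, against 25.9 ± 2.2 in WT Epithelia (log2 -0.36 ± 0.08, adjusted p = 0.0479), and averaged 25.0 ± 1.8 in LEGSKO. The Alas1 call was lost in 6 of 8 fits that left out 1 library and under 5 other settings.

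In fibers the 2 risers of the iron-sulfur cluster list were Nubp1, a cluster assembly scaffold, and Glrx5, a mitochondrial cluster carrier. Nubp1 averaged 26.5 ± 0.7 CPM in LEGSKO+BSO Fibers, 24.2 ± 1.9 in LEGSKO Fibers and 19.9 ± 1.5 in WT Fibers (LEGSKO+BSO against WT log2 0.41 ± 0.07, adjusted p = 0.00564). Glrx5 averaged 18.2 ± 1.5 CPM in LEGSKO+BSO, 14.5 ± 1.7 in LEGSKO and 13.3 ± 1.7 in WT Fibers (log2 0.45 ± 0.11, adjusted p = 0.0235). Tfr2, the second transferrin receptor, which senses iron-loaded transferrin in liver, was a low message at 2.10 ± 0.26 CPM in LEGSKO+BSO, 2.09 ± 0.24 in LEGSKO and 1.22 ± 0.30 in WT (log2 0.76 ± 0.20, adjusted p = 0.0427). Pgrmc1, a haem-binding membrane protein, fell to 19.6 ± 1.7 CPM in LEGSKO+BSO Fibers, against 25.2 ± 3.0 in WT Fibers (log2 -0.36 ± 0.09, adjusted p = 0.0302). Of these 4 calls only that of Nubp1 held without each library in turn, and the others were lost in 3 (Glrx5), 6 (Tfr2) and 4 (Pgrmc1) of 8 such fits. With library totals in place of TMM none of the 4 was called, although the log2 change was larger for Nubp1 (0.55), Glrx5 (0.61) and Tfr2 (0.89) and smaller only for Pgrmc1 (-0.20).

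Between the tissues 35 of the 66 further genes were higher in WT Fibers and 23 lower, against 12 higher and 49 lower with library totals alone, so the direction of the list depends on the scaling. In the other conditions the split was 34 and 22 in LEGSKO+BSO and 33 and 24 in LEGSKO, and with library totals 14 and 45 in LEGSKO+BSO and 10 and 49 in LEGSKO. Of the 6 genes of cytosolic storage, chaperoning and sensing, 6 were called higher in WT Fibers, with a median log2 difference of 1.07, but with library totals 3 were higher and 3 lower, with a median of -0.11. All 4 tested of export and oxidation were lower under both scalings, with a median of -1.90 by TMM and -3.09 with library totals. Over all genes tested the medians were -0.09 and -1.25. The 6 with the smallest adjusted p were Blvra, which reduces biliverdin (7.38-fold higher in fibers), Alad (7.67-fold lower), the endosomal sorting protein Snx3 (6.31-fold higher), the iron chaperone partners Glrx3 (5.13-fold higher) and Bola2 (6.45-fold higher), and the ferrireductase Steap2 (10.2-fold lower). With library totals these 6 kept their directions, at 3.32-fold for Blvra, 16.9-fold for Alad, 2.78-fold for Snx3, 2.27-fold for Glrx3, 2.91-fold for Bola2 and 22.4-fold for Steap2.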

How the data were processed

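The deposited file holds raw counts per Entrez gene for 24 libraries of total RNA, prepared with a standard Illumina protocol per the labels. Per the submitters' processing notes the tools were CASAVA 1.8, bcl2fastq, TopHat and DESeq, with builds mm10 and GRCm38. How reads were counted, with what annotation and strand setting, is not given in the sources used here. Symbols came from RefSeq (24334 of 24415 identifiers matched, and the other 81 held 0.914% of counts) and lengths and sites from GENCODE M21. Counts were filtered (filterByExpr, minimum count 10, total 15), scaled by TMM and tested with edgeR 4.0.16 in R 4.3.3 (quasi-likelihood F test, two-sided, Benjamini-Hochberg over all genes tested, threshold 0.05). Each tissue was fitted separately on 12 libraries. Differences between tissues, and between the tissues' responses, came from a fit of all 24; the submitters compared libraries of the same tissue only. CPM were scaled the same way, an SE is the log2 fold change over the square root of F, and a 95% interval is 1.96 SE each side. The biological coefficient of variation was 14.2% in epithelia and 12.8% in fibers. No pair of libraries of a group agreed within sampling noise (lowest chi-square per degree of freedom 5.27).

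The members and all lists were chosen with earlier results of these data known. Beyond the 10 members, the genes named are each of the 76 further iron genes called within a tissue, the 6 with the smallest adjusted p between tissues in WT, and in each tissue the 3 genes nearest in pattern to the member with the smallest adjusted p. Alternatives were RLE size factors, crystallins left out, no filter, DESeq2 1.42.0, a replicate block, the 8 compared libraries alone, each library left out, and library totals without TMM, the last chosen after seeing the data. The script was tested on simulated data.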

Additional observations from a re-analysis of the deposited data

Results flagged for a closer look

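In 8 of 60 sets of 4 libraries (10 genes in 6 groups, CPM scaled within the tissue) 1 library lay far from the other 3 by Dixon's criterion, where chance flags about 1 in 20 sets. WT Fibers library 1 gave 3 of the 8: Fth1 at 1009 CPM and Slc40a1 at 5.06 CPM, both above the rest of the group, and Ftl1 at 3538 CPM, below it. The other flagged values in fibers were Cp at 160.3 CPM in LEGSKO+BSO library 3, Slc11a2 at 12.4 CPM in LEGSKO library 2 and at 18.2 CPM in WT library 4, and Steap3 at 0.43 CPM in LEGSKO library 1, which is 11 reads. In epithelia Ireb2 was at 126 CPM in LEGSKO library 1.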

How the results depend on the processing

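Calls among the 10 genes that depended on the tool or the libraries came mostly from epithelia. For LEGSKO against WT Epithelia the count was 0 and became 1 with a replicate block (Steap3), 1 on the 8 libraries alone (Fth1) and 2 with DESeq2. For LEGSKO+BSO against WT Epithelia it was 2 and became 1 with the block, on the 8 libraries and with library totals without TMM, Tfrc being lost each time. In that comparison DESeq2 added Cp (adjusted p = 0.0259). DESeq2 called 2 for LEGSKO+BSO against LEGSKO Epithelia, 2 for LEGSKO+BSO against WT Fibers and 1 (Trf) for the difference between tissues in that response. Leaving out 1 library gave 0 to 2 in LEGSKO+BSO against WT Epithelia, 1 to 2 in each fiber group against WT, and 0 to 1 for the difference between tissues in the LEGSKO+BSO response. The 0 came without WT Epithelia library 2.

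Among the further iron genes DESeq2 called 4 for LEGSKO against WT Epithelia, 5 for LEGSKO+BSO against WT Epithelia, 6 for LEGSKO+BSO against LEGSKO Epithelia, 3 for LEGSKO against WT Fibers and 1 for the difference between tissues in the LEGSKO+BSO response. Their count of 2 for LEGSKO+BSO against WT Epithelia was 1 with RLE, without crystallins, with the block, with library totals and on the 8 libraries, Alas1 being lost. Their count of 4 for LEGSKO+BSO against WT Fibers was 2 on the 8 libraries and 0 with library totals. Leaving out 1 library gave 0 to 2 (LEGSKO against WT, either tissue), 1 to 3 and 1 to 6 (LEGSKO+BSO against WT, epithelia and fibers) and 0 to 1 (LEGSKO+BSO against LEGSKO Epithelia). With library totals Glrx5, Nubp1 and Tfr2 changed direction between WT tissues (log2 -0.65, -0.22 and -0.061), as did Glrx5 in LEGSKO (-0.75) and LEGSKO+BSO (-0.15). The share of all genes that DESeq2 called is not given here, so its counts set neither the members nor the further genes apart. The cause of the differences between settings was not tested.

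The labels do not say that a replicate number marks a shared animal or batch, and the data were mixed: the correlation of same-numbered libraries was over 0.1 in 2 of 12 pairs in epithelia (-0.292 to 0.343), 5 of 12 in fibers (-0.255 to 0.182) and 5 of 12 between tissues (-0.273 to 0.392). All 8 LEGSKO+BSO libraries correlated best with their own number in the other tissue (0.08 to 0.228), as did 4 of 8 in WT (0.0692 to 0.392) and 0 of 8 in LEGSKO (-0.273 to -0.0254). Over the 10 genes, alternatives other than leaving out a library kept the outcome, called or not called, in all but 14 of 789 values (11 gained, 3 lost). These values include the many comparisons that were not called, so the share says little about how firm a call is. All 3 losses were of Tfrc in LEGSKO+BSO against WT Epithelia. No called member changed sign. With library totals all 30 differences between tissues and 9 of the other 87 values moved by over 1 SE, against 0 of 672 under the other settings. Depth limits Steap3 and Slc40a1 in fibers, with 0 to 37 and 5 to 91 reads per library.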
